A study of Rattus norvegicus with 12 samples.

Results

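The genes described are the ligands and receptors of axon guidance in HCN cells, a neural stem cell line from the adult rat hippocampus, after knockdown of the transcriptional repressor Rest. They were matched by a rule on gene symbols, and were chosen with earlier results of these data known. The symbols covered the Eph receptors and ephrins (Eph, Efn), and the semaphorins with their plexin and neuropilin receptors (Sema, Plxn, Nrp). They also covered the netrins with Dcc and the Unc5 receptors, and the Slits with the Robo receptors. The rule matched 61 of the 16468 genes listed, of which 32 encode ligands and 27 encode receptors. The other 2, Unc50 and Unc5cl, share the start of a symbol with the netrin receptors and were counted as neither ligand nor receptor. Unc50 encodes a Golgi protein and is not a guidance gene, but both were kept in the counts because the rule takes them.

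The study asked what REST does in quiescent and in proliferating neural stem cells, and measured RNA by sequencing of total RNA depleted of ribosomal RNA. HCN cells, an established cloned line used at multiple passages, were grown as a monolayer with FGF2 and BMP4, which makes them quiescent (iQNP), or with FGF2 alone, where they proliferate (TAP). In each growth condition there were 4 libraries from cells electroporated with a REST knock-down shRNA vector and 2 from cells electroporated with empty vector, 12 libraries in all. All groups thus carry an electroporated plasmid and FGF2, and all come from 1 cloned line. The deposited tables hold a single value per gene and group in FPKM, mapped fragments scaled by transcript length and by sequencing depth, made from all libraries of that group. Values of single libraries were not used here, so no replicate error, n or p-value stands beside any value here, and every difference is a description of these 4 pooled values.

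Axon guidance genes take their name from the growing axon, which they steer by attraction or repulsion at its tip. Ephrins are held on the cell membrane and bind Eph receptor tyrosine kinases on the neighbouring cell. Class 3 semaphorins are secreted and act through neuropilins and plexins, whereas most other vertebrate semaphorins are membrane-bound and bind plexins directly. Netrins attract through Dcc and repel through Unc5 receptors, and Slits repel through Robo receptors. The same families also act outside axons, in cell migration, blood vessel growth and the placing of neural progenitors. REST silences neuronal genes in cells that are not neurons by binding a DNA element called RE1 and recruiting enzymes that modify histones.

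Of the 61 genes, 19 lay under 1 FPKM in all 4 groups, and the highest value among these was 0.9305 FPKM, that of Sema5b in iQNP knockdown cells. These 19 included Dcc, the attractive netrin receptor, as well as Robo2, Robo3, Robo4, Slit1 and Slit2. Sema6b and Unc5cl were listed at 0 in all groups, but so was Rhoa, a small GTPase that nearly every cell uses, and a listed 0 was therefore not read as absence of the transcript. At the other end, 10 genes were over 10 FPKM in all 4 groups. Plxnb2, a plexin that binds class 4 semaphorins, was the highest of all in both knockdown groups, with 71.3 FPKM in iQNP and 67.4 FPKM in TAP. In control cells the highest were secreted semaphorins, Sema3a in iQNP with 139 FPKM and Sema3d in TAP with 95.2 FPKM. RefSeq lists a named pseudogene of Plxnb2, so its values are uncertain where reads could be shared.

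**Figure D1:**
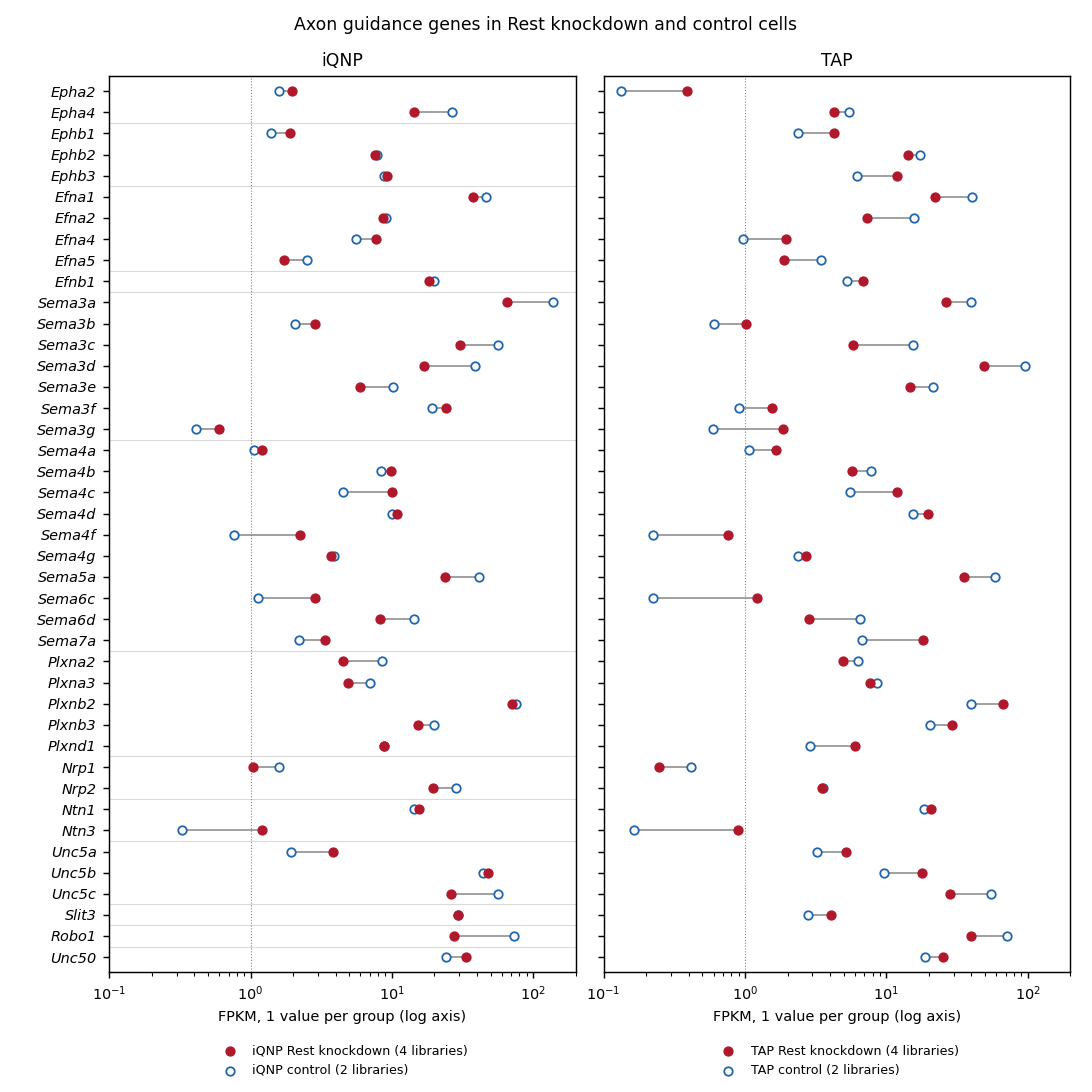
Level of the 42 genes matched by the rule, Unc50 included, with at least 1 FPKM in either group of either growth condition. They are ordered by family, in FPKM on a log axis. Filled red points are Rest knockdown groups, open blue points are control groups, grey lines join the values of 1 gene, and the dotted line marks 1 FPKM; in iQNP, Sema3a lies at 65.2 FPKM in knockdown cells, left of its control value of 139 FPKM.

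Genes were compared where the authors' quantification status was OK and either group reached 1 FPKM, and the change was taken as log2((knockdown FPKM + 1)/(control FPKM + 1)), called the log2 ratio from here on. A gene past 1 or -1, a 2-fold change on this scale, was called higher or lower. Of the members, 41 were compared in iQNP and 37 in TAP.

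In iQNP cells, Rest knockdown left 1 member higher, Sema4c, and 4 lower, namely Robo1, Sema3a, Sema3d and Unc5c. The 1 higher gene is 2.44% of the 41 members, against 14.4% of all 9613 compared genes, and the 4 lower genes are 9.76%, against 3.09%. The median log2 ratio was -0.05 over the members and 0.01 over all compared genes. In TAP cells 1 member was higher, Sema7a, and 2 were lower, Sema3c and Efna2. These are 2.70% of the 37 members, against 15.5% of all 9396 compared genes, and 5.41%, against 6.73%. The median log2 ratio was 0.15 over the members and 0.01 over all compared genes. At this limit the members were thus called higher at a smaller share than the background in both conditions, with 1 call in each. Adding 1 FPKM before the ratio understates changes of low genes. With 0.1 FPKM added instead, 4 of 41 members were higher in iQNP, against 16.7% of all genes. In TAP 5 of 37 were then higher, against 17.9%. At a 1.5-fold limit the higher calls were 5 of 41 in iQNP, against 25.1% of all genes. In TAP they were 9 of 37, near the 26.6% of all genes. With the 2-fold limit, the members' share of lower calls was above the background in iQNP and near it in TAP.

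The Rest transcript itself was at 13.9 FPKM in iQNP knockdown cells and 48.7 FPKM in iQNP control cells, a log2 ratio of -1.74, and at 9.002 FPKM in TAP knockdown cells and 27.8 FPKM in TAP control cells, a log2 ratio of -1.53. Ribosomal protein genes held 25.97% of all FPKM in iQNP knockdown cells and 6.59% in iQNP control cells, and 35.1% in TAP knockdown cells and 10.8% in TAP control cells. When the groups were scaled to the same sum of FPKM, the median of all genes moved to -0.47 in iQNP and -0.54 in TAP, and 11 members were then lower and 0 higher in each condition. The lower ones are 26.8% of the members in iQNP, against 21.7% of all genes on that scale, and 29.7% in TAP, against 26.9%, shares near the background. The 0 higher stand against 8.1% of all genes in iQNP and 7.36% in TAP. The median of the members was -0.51 in iQNP and -0.30 in TAP on that scale, close to that of all genes in iQNP and above it in TAP. When ribosomal protein genes were left out of that sum, 6 members were lower in iQNP (14.6%, against 7.81% of all genes) and 0 higher (against 11.5%). In TAP 5 were lower (13.5%, against 10%) and 1 higher (2.7%, against 13%). All 7 listed neural stem and progenitor markers reached 1 FPKM in each condition, with median log2 ratios of -0.04 in iQNP and -0.15 in TAP. Hes1 and Msi1 were higher in TAP, with log2 ratios of 1.37 and 1.26, and Vim had 0.46 there. Sox2, Pax6, Fabp7 and Nes had negative ratios in TAP, from -0.33 to -0.15. Of the markers of other cell types, 1 of 6 listed for microglia reached 1 FPKM in either condition, and 1 of 4 for endothelium and 1 of 5 for fibroblasts and mural cells did so in iQNP, with 0 of 4 and 0 of 5 in TAP. Cldn5, an endothelial tight junction gene, was listed at 0, which, as for Rhoa, was not read as absence. The microglial markers summed to 3.95 FPKM in iQNP knockdown cells and 4.62 FPKM in iQNP control cells, and to 7.79 FPKM in TAP knockdown cells and 16.9 FPKM in TAP control cells, and P2ry12 of that list was lower in TAP with a log2 ratio of -1.02. Astrocyte and oligodendrocyte lineage markers were not absent. Of 5 listed astrocyte markers 4 reached 1 FPKM in iQNP and 3 in TAP, with sums of 518 FPKM in iQNP knockdown cells and 562 FPKM in iQNP control cells, and 379.9 FPKM in TAP knockdown cells and 383 FPKM in TAP control cells. Gja1, a gap junction gene of that list, was lower in TAP with a log2 ratio of -1.06. Of 7 oligodendrocyte lineage markers 5 reached 1 FPKM in each condition, with sums of 331 FPKM in iQNP knockdown cells and 431 FPKM in iQNP control cells, and 504 FPKM in TAP knockdown cells and 544 FPKM in TAP control cells. Olig1, a lineage transcription factor, was higher in both, with log2 ratios of 1.35 and 1.69. Of 6 compared neuronal markers, 2 were higher (Snap25 and Tubb3) and 2 lower (Map2 and Syt1) in both conditions, and the sum was 276 FPKM in iQNP knockdown cells and 333 FPKM in iQNP control cells, and 185 FPKM in TAP knockdown cells and 283 FPKM in TAP control cells. The part of these values in the results was not tested, and in bulk RNA fewer cells of a type and less RNA per cell cannot be told apart.

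The class 3 semaphorins held the ligand with the most negative log2 ratio in each condition, Sema3d in iQNP and Sema3c in TAP. They are chemorepellents for many axons and migrating neurons. Summed over the 7 genes, they reached 146 FPKM in iQNP knockdown cells and 265 FPKM in iQNP control cells, and 101 FPKM in TAP knockdown cells and 174 FPKM in TAP control cells. Sema3a, a ligand of Nrp1, was at 65.2 FPKM in iQNP knockdown cells and 139 FPKM in iQNP control cells, with a log2 ratio of -1.08. In TAP it was at 26.4 FPKM in knockdown cells and 39.6 FPKM in control cells, with a log2 ratio of -0.57. Sema3a was therefore lower past 2-fold in quiescent cells and had the same sign at a smaller size in proliferating cells. Sema3d was at 17.0 FPKM in iQNP knockdown cells and 38.8 FPKM in iQNP control cells, and at 49.1 FPKM in TAP knockdown cells and 95.2 FPKM in TAP control cells. Its log2 ratios were -1.15 in iQNP and -0.94 in TAP, so that the second fell just short of the limit. Sema3c, which acts through both neuropilins, was at 30.2 FPKM in iQNP knockdown cells and 56.0 FPKM in iQNP control cells, and at 5.82 FPKM in TAP knockdown cells and 15.5 FPKM in TAP control cells. Its log2 ratios were -0.87 and -1.28, which makes it the member with the most negative ratio in TAP.

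Sema3b and Sema3f, ligands of Nrp2, differed from these genes in sign. Sema3f was at 24.1 FPKM in iQNP knockdown cells and 19.2 FPKM in iQNP control cells, and at 1.55 FPKM in TAP knockdown cells and 0.907 FPKM in TAP control cells. The log2 ratios of Sema3f were 0.31 in iQNP and 0.42 in TAP, and that of Sema3b was 0.34 in iQNP. In TAP Sema3b was not compared, since its status was not OK, at 1.02 FPKM in knockdown cells and 0.602 FPKM in control cells. Sema3g reached 1 FPKM only in TAP knockdown cells, with 1.86 FPKM against 0.592 FPKM in control cells and a log2 ratio of 0.85. None of these 3 passed the limit where it was compared.

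Position is given in the build rn4, as listed in the deposited tables. Sema3c (chr4:13739658-13914636), Sema3e (chr4:16523601-16781878), Sema3a (chr4:17575111-17790100) and Sema3d (chr4:18641724-18832339) lie one after another on chromosome 4, and all had negative log2 ratios in both conditions. Sema3e, the ligand of Plxnd1, was at 5.92 FPKM in iQNP knockdown cells and 10.1 FPKM in iQNP control cells, and at 14.7 FPKM in TAP knockdown cells and 21.3 FPKM in TAP control cells, with log2 ratios of -0.68 and -0.50. Only 3 other genes are listed in this stretch. Cacna2d1, a calcium channel subunit, had log2 ratios of -1.36 in iQNP and -0.58 in TAP, and Pclo, a presynaptic scaffold protein, had -0.06 and -0.25. Hgf, a growth factor, was too low to be compared. The 4 semaphorin genes here span 175.0 to 258.3 kb each, and of all compared genes over 150 kb, 81.6% in iQNP and 74.7% in TAP had negative log2 ratios. Sema3b and Sema3f, which lie 79546 bases apart on chromosome 8, span 6.9 and 30.2 kb.

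Among the membrane semaphorins, Sema4c and Sema7a were the members called higher. Sema4c (chr9:35492646-35503102), a ligand of Plxnb2, was at 10.1 FPKM in iQNP knockdown cells and 4.52 FPKM in iQNP control cells, and at 11.97 FPKM in TAP knockdown cells and 5.51 FPKM in TAP control cells. Its log2 ratios were 1.005 and 0.995, so it lay at the limit in both conditions and was called in iQNP alone. Sema7a (chr8:61717448-61739529), a lipid-anchored semaphorin that promotes axon growth through integrins, was at 3.35 FPKM in iQNP knockdown cells and 2.22 FPKM in iQNP control cells. In TAP it was at 18.2 FPKM in knockdown cells and 6.75 FPKM in control cells, with log2 ratios of 0.44 in iQNP and 1.31 in TAP. Sema6c was at 2.86 FPKM in iQNP knockdown cells and 1.14 FPKM in iQNP control cells, and at 1.21 FPKM in TAP knockdown cells and 0.223 FPKM in TAP control cells, with log2 ratios of 0.86 and 0.85. Sema6d had the opposite sign, with 8.25 FPKM in iQNP knockdown cells and 14.3 FPKM in iQNP control cells, and 2.85 FPKM in TAP knockdown cells and 6.54 FPKM in TAP control cells. The log2 ratios of Sema6d were -0.73 and -0.97, the most negative of the membrane class in TAP. Sema5a, at 23.6 FPKM in iQNP knockdown cells and 41.7 FPKM in iQNP control cells and at 35.3 FPKM in TAP knockdown cells and 58.7 FPKM in TAP control cells, had -0.79 and -0.72. Of the 10 membrane semaphorins compared in iQNP, 7 had positive and 3 negative log2 ratios, and of the 9 compared in TAP, 6 were positive and 3 negative.

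The sequences upstream of the 4 called semaphorins with an entry in the RefSeq promoter table are shown because these genes differ both in the direction of change and in the make-up of the DNA before their start. Each is the 250 bases before the annotated start in the build GRCr8, 5′ to 3′ on the strand of the gene, with CG dinucleotides in capitals. Sema3c is at chr4:18699628-18699877 on the minus strand, Sema3d at chr4:23460972-23461221 on the minus strand, Sema4c at chr9:46297999-46298248 on the minus strand and Sema7a at chr8:67244068-67244317 on the plus strand.
Sema3c: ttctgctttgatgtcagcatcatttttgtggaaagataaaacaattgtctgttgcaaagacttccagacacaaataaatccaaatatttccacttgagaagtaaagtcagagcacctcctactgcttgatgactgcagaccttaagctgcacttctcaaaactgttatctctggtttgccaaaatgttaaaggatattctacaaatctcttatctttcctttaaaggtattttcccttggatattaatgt
Sema3d: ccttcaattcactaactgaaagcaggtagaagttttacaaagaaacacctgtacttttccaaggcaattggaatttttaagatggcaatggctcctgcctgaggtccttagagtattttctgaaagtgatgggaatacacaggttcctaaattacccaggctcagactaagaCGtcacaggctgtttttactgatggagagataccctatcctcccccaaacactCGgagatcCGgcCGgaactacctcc
Sema4c: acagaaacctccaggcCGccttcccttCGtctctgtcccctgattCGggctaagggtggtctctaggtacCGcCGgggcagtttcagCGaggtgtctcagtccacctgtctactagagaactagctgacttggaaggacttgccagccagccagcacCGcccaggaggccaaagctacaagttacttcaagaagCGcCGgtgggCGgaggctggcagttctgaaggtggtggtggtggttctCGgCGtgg
Sema7a: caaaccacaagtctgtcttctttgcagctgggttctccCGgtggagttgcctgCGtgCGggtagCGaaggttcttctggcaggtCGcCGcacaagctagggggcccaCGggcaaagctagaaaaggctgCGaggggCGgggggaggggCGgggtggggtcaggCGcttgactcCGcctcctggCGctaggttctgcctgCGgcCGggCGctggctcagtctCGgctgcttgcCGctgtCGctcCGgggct
There were 0 CG dinucleotides in the stretch before Sema3c and 4 in that before Sema3d, the 2 genes that were lower. There were 12 before Sema4c and 20 before Sema7a, the 2 that were higher. A set of 4 genes picked for their calls shows no rule: Sema6c, with a positive ratio in both conditions, also had 0 in its upstream window, and Efna2, which was lower in TAP, had 31.

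Across the family as a whole, 48 of the 61 members matched an entry in that table by symbol, with 49 windows because Robo1 has 2. Each window runs from 250 bases before to 50 bases after the start. CG dinucleotides numbered a median of 18 per window over the compared members, against 22 over all compared genes and 7 over all 33469 windows. The TATA box letters TATAAA, searched on both strands, were found in 0 of 49 member windows, against 6.52% of the windows of compared genes and 14.2% of all windows. The left and the right part of the RE1 element were searched in the same way. TTCAGCACC, the left part, was in 0 of 49 member windows and in 0.356% of all windows. GGACAGC, the right part, was in 6 of 49 (12.2%), those of Efnb1, Efnb2, Ntn5, Robo3, Sema3d and Sema3g, and in 6.59% of all windows. Among compared genes alone it was in 3 of 34 member windows (8.82%), those of Efnb1, Sema3d and Sema3g, and in 7.32% of windows, a share near the background. A match is a run of letters and not a binding site, and a missing match says only that these letters are not in this window.

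Ephrins of the A class are anchored in the membrane by a lipid and those of the B class span it. Of those compared, Efna2 and Efna1 differed most between the growth conditions. Efna2 (chr7:11028431-11039064) was at 8.69 FPKM in iQNP knockdown cells and 9.05 FPKM in iQNP control cells, a log2 ratio of -0.05. In TAP it was at 7.31 FPKM in knockdown cells and 15.8 FPKM in control cells, a log2 ratio of -1.01. Efna2 was thus near its control level in quiescent cells and just past the limit in proliferating ones. Efna1, the most abundant ephrin in all groups, was at 37.7 FPKM in iQNP knockdown cells and 46.4 FPKM in iQNP control cells, and at 22.2 FPKM in TAP knockdown cells and 40.6 FPKM in TAP control cells, with log2 ratios of -0.30 and -0.84. Efna4, which lies 69325 bases from Efna1 on chromosome 2, had ratios of the opposite sign, 0.40 and 0.58. Efna5 had log2 ratios of -0.37 and -0.62. Summed over the 4 ephrin-A genes the level was 55.8 FPKM in iQNP knockdown cells and 63.6 FPKM in iQNP control cells, and 33.3 FPKM in TAP knockdown cells and 60.7 FPKM in TAP control cells. Efnb1, the one ephrin-B gene that was compared, had log2 ratios of -0.11 and 0.33.

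No netrin or Slit that was compared passed the limit. Ntn1, the founding vertebrate netrin, was at 15.5 FPKM in iQNP knockdown cells and 14.2 FPKM in iQNP control cells, and at 20.6 FPKM in TAP knockdown cells and 18.5 FPKM in TAP control cells. Its log2 ratios were 0.11 and 0.15. Ntn3 was low, at 1.21 FPKM in iQNP knockdown cells and 0.328 FPKM in iQNP control cells, a log2 ratio of 0.73 that a pseudocount of 0.1 FPKM takes past the limit. In TAP Ntn3 was not compared, at 0.897 FPKM in knockdown cells and 0.165 FPKM in control cells. Slit3, the one Slit that was compared, was at 29.3 FPKM in iQNP knockdown cells and 29.5 FPKM in iQNP control cells, and at 4.09 FPKM in TAP knockdown cells and 2.78 FPKM in TAP control cells, with log2 ratios of -0.01 and 0.43. For Slit3 the growth conditions thus lay farther apart than knockdown and control.

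Robo1 and Unc5c, both repulsive receptors, were the receptors called lower in iQNP. Robo1 (chr11:10784946-11720646), a receptor of the Slits, was at 27.6 FPKM in iQNP knockdown cells and 73.0 FPKM in iQNP control cells, and at 39.5 FPKM in TAP knockdown cells and 72.0 FPKM in TAP control cells. Its control levels were nearly equal in the 2 conditions, and its log2 ratios were -1.37 in iQNP and -0.85 in TAP. In iQNP this was the most negative ratio of all members. Unc5c (chr2:239365108-239721231), a receptor of Ntn1, was at 26.1 FPKM in iQNP knockdown cells and 56.2 FPKM in iQNP control cells, and at 28.5 FPKM in TAP knockdown cells and 54.9 FPKM in TAP control cells, with log2 ratios of -1.08 and -0.92. The other compared Unc5 receptors had positive ratios. Unc5a was at 3.82 FPKM in iQNP knockdown cells and 1.95 FPKM in iQNP control cells, and at 5.15 FPKM in TAP knockdown cells and 3.23 FPKM in TAP control cells, with log2 ratios of 0.71 and 0.54. Unc5b was at 47.6 FPKM in iQNP knockdown cells and 44.4 FPKM in iQNP control cells, a log2 ratio of 0.10, and at 17.8 FPKM in TAP knockdown cells and 9.59 FPKM in TAP control cells, a log2 ratio of 0.83. Unc5b, known for its part in blood vessel growth, thus differed in TAP more than in iQNP.

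The plexins, which turn semaphorin binding into changes of the cytoskeleton through small GTPases, had a median log2 ratio of -0.34 in iQNP and 0.50 in TAP over the 5 compared. Of these, 4 had negative ratios in iQNP and 2 in TAP, and Plxnb2 and Plxnb3 changed sign. Plxnb2 was at 71.3 FPKM in iQNP knockdown cells and 76.2 FPKM in iQNP control cells, and at 67.4 FPKM in TAP knockdown cells and 40.1 FPKM in TAP control cells, with log2 ratios of -0.09 and 0.74. Plxnd1, the receptor of Sema3e, was at 8.87 FPKM in iQNP knockdown cells and 8.83 FPKM in iQNP control cells, and at 6.02 FPKM in TAP knockdown cells and 2.89 FPKM in TAP control cells, with log2 ratios of 0.01 and 0.85. Plxna2 had negative ratios in both, -0.79 and -0.30. The summed level of the plexins was 105 FPKM in iQNP knockdown cells and 120.3 FPKM in iQNP control cells, and 115 FPKM in TAP knockdown cells and 78.0 FPKM in TAP control cells. No plexin passed the limit in either condition.

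Nrp2, a neuropilin that serves as co-receptor of class 3 semaphorins, was at 19.4 FPKM in iQNP knockdown cells and 28.5 FPKM in iQNP control cells, and at 3.53 FPKM in TAP knockdown cells and 3.54 FPKM in TAP control cells. Its log2 ratios were -0.53 and 0.00. Nrp1 was compared in iQNP alone, with 1.04 FPKM in knockdown cells and 1.60 FPKM in control cells. Of the Eph receptors, Epha4, which binds ephrins of both classes, was at 14.4 FPKM in iQNP knockdown cells and 26.8 FPKM in iQNP control cells, and at 4.23 FPKM in TAP knockdown cells and 5.43 FPKM in TAP control cells, with log2 ratios of -0.86 and -0.30. Ephb3 was at 9.31 FPKM in iQNP knockdown cells and 8.82 FPKM in iQNP control cells, and at 11.9 FPKM in TAP knockdown cells and 6.19 FPKM in TAP control cells, with log2 ratios of 0.07 and 0.84. Ephb2 stayed close to control in both, with -0.05 and -0.27. Of the 11 Eph receptors listed, 5 were compared in iQNP and 4 in TAP, and none of these was called. The level of Epha1 is uncertain, since the tables list it at the same position as Zyx.

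The genomic span of a gene, the distance between the ends of its listed position, moved with the log2 ratio. Axon guidance genes are long: 46.3% of the members compared in iQNP span over 50 kb, against 25.3% of all compared genes, and in TAP 48.6%, against 25.2%. Of the 19 members over 50 kb in iQNP, 15 had negative log2 ratios, 4 were lower (21.1%, against 7.36% of all 2431 genes of that span) and 0 were higher. Their median was -0.68, against -0.47 for all genes of that span. They are also longer than that set, with a median span of 190615 bases, against 97663. Over 150 kb, 12 of 14 members were negative in iQNP (85.7%, against 81.6% of all genes), with medians of -0.73 and -0.55. Of the 22 members of up to 50 kb, 1 was higher, against a background of 18.2%, and 0 were lower, with a median of 0.15 against 0.19. All 4 members called lower in iQNP thus span over 50 kb, from 190.6 kb for Sema3d to 935.7 kb for Robo1.

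In TAP, 1 of the 18 members over 50 kb was lower (5.56%, against 9.89% of all 2366 genes of that span), with a median of -0.40 against -0.33. Of the 19 members of up to 50 kb, 1 was higher (5.26%, against 19.1%) and 1, Efna2, was lower (5.26%, against 5.66%), with a median of 0.42 against 0.17. Across genes, Spearman's rho between span and log2 ratio was -0.58 over 41 members and -0.47 over all genes in iQNP, and -0.40 over 37 members and -0.35 over all genes in TAP. These points share the same libraries and are not independent, and the relation runs through the whole table. The members over 50 kb with a positive log2 ratio were Ephb1 (456.3 kb), with 0.28 and 0.64, Ntn1, Unc5a and Unc5b in both conditions, and Slit3 (593.5 kb) in TAP alone, with -0.01 and 0.43. Among those of up to 50 kb, 7 had negative log2 ratios in iQNP and 4 in TAP. Those negative in both were Efna1 (7.3 kb), with -0.30 and -0.84, Efna2 (10.6 kb), with -0.05 and -1.01, and Plxna3 (15.8 kb), with -0.45 and -0.14.

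**Figure D2:**
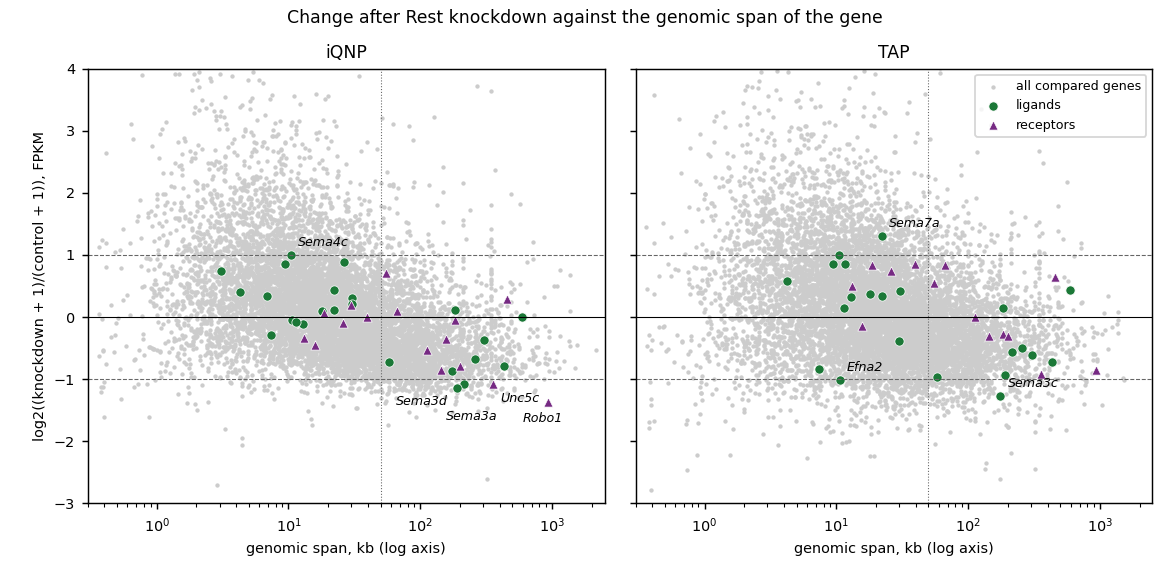
Log2 ratio of knockdown over control against the genomic span of each gene in kb (log axis), in iQNP and in TAP, with all compared genes in grey, ligands as green circles and receptors as purple triangles; genes outside the axes and Unc50 are not drawn. Dashed lines mark the 2-fold limit and the dotted line 50 kb; the members over 50 kb centre on -0.68 in iQNP and -0.40 in TAP, below those of up to 50 kb at 0.15 and 0.42.

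The changes were compared between the growth conditions, which have separate control libraries. Of the 36 members compared in both, 30 had the same sign, with 14 positive and 16 negative. This is 83.3%, against 85.3% of the 9238 genes compared in both, a share near that of all genes. Spearman's rho across genes was 0.77 over the members and 0.86 over all genes. Of the 6 members with opposite signs, 5 were negative in iQNP and positive in TAP. The most positive differences of log2 ratios, TAP minus iQNP, were those of Sema7a with 0.87, Plxnd1 with 0.85, Plxnb3 with 0.84, Plxnb2 with 0.83 and Ephb3 with 0.77. The most negative was that of Efna2 with -0.96, followed by Sema4b with -0.60 and Efna1 with -0.55. No test of these differences was possible with 1 value per group.

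**Figure D3:**
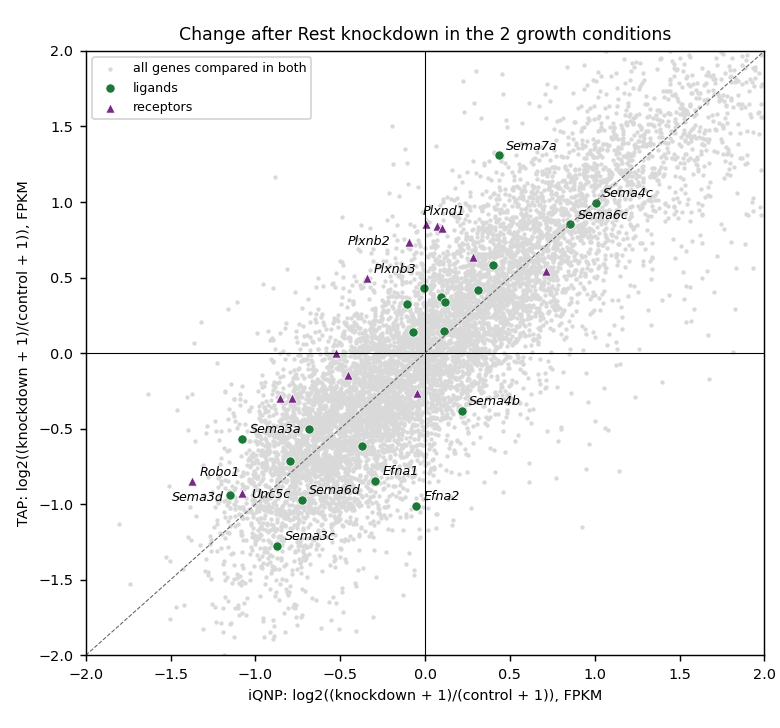
Log2 ratio of knockdown over control in iQNP (x axis) and in TAP (y axis) for the genes compared in both, with all genes in grey, ligands as green circles and receptors as purple triangles; the dashed line marks equal change, and genes outside the axes and Unc50 are not drawn. Robo1, Sema3a, Sema3c, Sema3d and Unc5c lie in the lower left, Plxnb2, Plxnb3 and Plxnd1 lie above the line, and Efna2 lies below it at -0.05 and -1.01.

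Quiescent and proliferating cells were then set side by side, as log2((iQNP FPKM + 1)/(TAP FPKM + 1)) within the knockdown groups and within the control groups. This comparison was chosen after the values had been seen, and the 2 tables were normalized separately by the authors, so a level set across them also holds any difference in that step. In knockdown cells 11 of 42 members were higher in iQNP (26.2%, against 9.6% of all 9660 genes) and 3 were lower (7.14%, against 4.13%). In control cells 12 of 39 members were higher in iQNP (30.8%, against 10.6% of all 9519 genes) and 4 were lower (10.3%, against 6.15%). All 11 of the members higher in knockdown cells were also higher in control cells, and the 3 lower members were lower in both. This overlap was not counted over all genes, so it is not read as particular to the members. Plxnd1 and Ephb2 were called in control cells alone.

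The members higher in iQNP included ligands and receptors, but matched pairs were not counted. Slit3 was higher and Robo1 was not. Unc5b was higher and Ntn1, with log2 ratios of -0.39 in knockdown and -0.36 in control cells, was not. Sema3f was at 24.1 FPKM in iQNP knockdown cells against 1.55 FPKM in TAP knockdown cells, and at 19.2 FPKM in iQNP control cells against 0.907 FPKM in TAP control cells, with log2 ratios of 3.30 and 3.40. Nrp2, its receptor, had log2 ratios of 2.17 in knockdown and 2.70 in control cells, and Slit3 had 2.58 and 3.01. Sema3c, with 2.19 and 1.79, and Sema3a, with 1.27 and 1.78, were higher in iQNP, whereas their neighbours Sema3d, with -1.48 and -1.27, and Sema3e, with -1.19 and -1.01, were lower. The 4 genes on chromosome 4 therefore had the same sign after Rest knockdown but not between growth conditions. Unc5b had 1.37 and 2.10, Epha4 had 1.56 and 2.11, Efnb1 had 1.31 and 1.74, and Efna4 had 1.56 and 1.74. Epha2 had 1.09 and 1.20 and Sema6d 1.27 and 1.02. Sema7a had the most negative ratios of all members in knockdown cells, with -2.14, and -1.27 in control cells. Robo1 and Unc5c, both lower after knockdown in iQNP, differed little between the growth conditions in control cells, with 0.02 and 0.03.

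**Figure D4:**
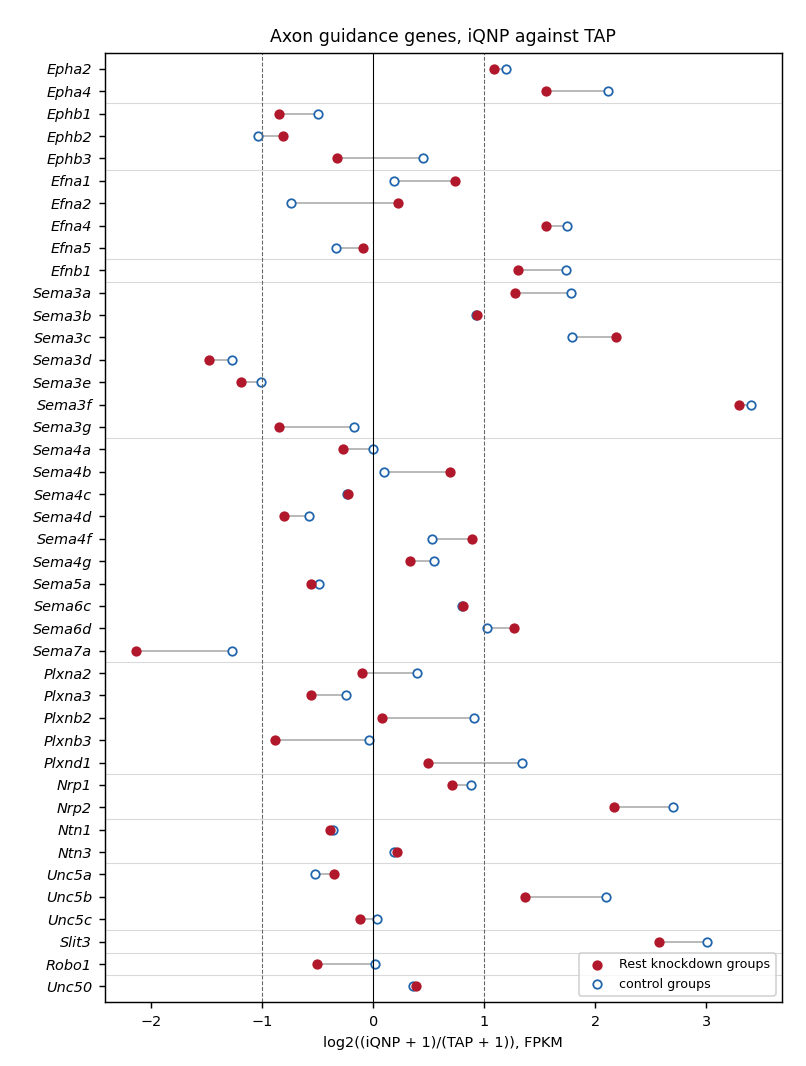
Log2 ratio of iQNP over TAP for the 42 members with at least 1 FPKM in any group, in Rest knockdown groups (filled red points) and control groups (open blue points), with dashed lines at the 2-fold limit. Sema3f, Slit3 and Nrp2 lie farthest to the right, at 3.40, 3.01 and 2.70 in control groups, and Sema7a farthest to the left, at -2.14 in knockdown groups.

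Other genes of the pathway, cofactors and signalling proteins behind the receptors, were counted from a list of 78 genes, of which 69 were listed in the tables. In iQNP, 5 of the 59 compared were higher (8.47%, against 14.4% of all compared genes) and 7 were lower (11.9%, against 3.09%), with a median log2 ratio of -0.31. In TAP, 5 of the 56 compared were higher (8.93%, against 15.5%) and 4 were lower (7.14%, against 6.73%), with a median of -0.16. The genes higher in both conditions were Cdk5, a kinase that phosphorylates cytoskeletal proteins, Cfl1, which severs actin filaments, Ntng2, a membrane-anchored relative of the netrins, and Vasp, which extends actin filaments. Their log2 ratios were 1.53 and 1.41 for Cdk5, 1.15 and 1.05 for Cfl1, 1.77 and 1.36 for Ntng2, and 1.12 and 1.12 for Vasp. The genes lower in both were Pak3, a kinase activated by Rac and Cdc42, with -1.26 and -1.24, and Rasa1, a Ras GTPase activator that binds Eph receptors, with -1.01 and -1.06. The other lower calls in iQNP, with the TAP ratio second, were Arhgef12 with -1.16 and -0.44, which couples plexin-B receptors to RhoA, Srgap1 with -1.23 and -0.07, which acts behind Robo receptors, and Flrt3 with -1.02 and -0.97, a ligand of Unc5 receptors. The RhoA effector kinases Rock1, with -1.18 and -0.89, and Rock2, with -1.31 and -0.74, were also called there. The other lower calls in TAP, with the iQNP ratio first, were Enah with -0.92 and -1.25, which extends actin filaments, and Gnai1 with -0.94 and -1.07, a G protein subunit. The other higher calls were Rhod in iQNP with 1.52, a small GTPase too low in TAP to be compared, and Crmp1 in TAP, with 0.67 and 1.10, a cytosolic protein of semaphorin signalling. Several of these lay near the limit in the other condition, and no difference between conditions was tested. Srgap1, at 14.2 FPKM in iQNP knockdown cells and 34.5 FPKM in iQNP control cells, had the same sign as Robo1. Both span over 150 kb, and 81.6% of all compared genes of that span had negative log2 ratios in iQNP. In TAP Srgap1 was at 26.2 FPKM in knockdown cells and 27.5 FPKM in control cells. The genes of this list are long as well, with a median span of 72967 bases among those compared in iQNP. Of all compared genes over 50 kb, 7.36% were lower in iQNP.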

How the data were processed

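RNA of 12 libraries was sequenced. Per the submitters' processing notes, the authors mapped reads to rn4 with TopHat2 and compared groups with Cuffdiff (versions are not given in the sources used here). The 2 deposited tables, 1 per growth condition, hold 1 FPKM value per gene and group, made by the authors from all libraries of the group and normalized within the table. Both are revised versions, with no account of the revision in the sources used here. Their columns of fold change, test statistic, p and q and the mark for significance are the authors' own comparison and were not used. The study gives read numbers only as a range over the libraries and the tables hold no counts, so no depth per library was used and no interval or floor is given.

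Groups came from the labels. A gene was compared with status OK and at least 1 FPKM in either group; across tables, status OK in either. The log2 ratio used a pseudocount of 1 FPKM, which understates changes of low genes, and calls needed 2-fold. Only the step that counts calls was tried on simulated data, and the member counts given here were not tested. Span is the end minus the start of the listed position. Promoters came from RefSeq (GRCr8), matched by symbol.

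Named were Rest, members past 2-fold in either table, the highest member per group, the members of each family with the largest change in either direction that were compared in both tables, and list genes past 2-fold. Other genes named were chosen after their values were seen. The members and lists were chosen with earlier results of these data known.

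Alternatives were a pseudocount of 0.1 FPKM, other minimum levels, 3 scalings, folds of 1.5 and 3, and long genes alone. Python 3.11.15, numpy 2.4.6, pandas 2.3.3, scipy 1.17.1 and matplotlib 3.10.9 were used.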

Additional observations from a re-analysis of the deposited data

How the results depend on the processing

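No paired analysis was possible because each group has a single pooled value, and for the same reason no replicate could be left out in turn. The 2 libraries per control group and the lack of a depth per library limit every value. Of 118 alternative values of the counts and medians, 85 stayed within 1.5 times the reported count or 0.25 of the reported median and 33 did not. No log2 ratio of a called member reversed its sign. A pseudocount of 0.1 FPKM gave 4 members higher in iQNP (all genes 16.7%) and 5 in TAP (17.9%). It gave 5 lower in knockdown iQNP against TAP (all genes 5.35%). Scaling to the same sum of FPKM gave 0 higher (all genes 8.1%), 11 lower (21.7%) and a median of -0.51 in iQNP. In TAP it gave 0 higher (7.36%), 11 lower (26.9%) and a median of -0.30. Leaving ribosomal protein genes out of that sum gave 0 higher in iQNP (all genes 11.5%) and 5 lower in TAP (10%). It gave 7 lower in knockdown iQNP against TAP (7.63%). Centring on the median gave 0 higher in iQNP (all genes 14.3%). A 1.5-fold limit gave 5 higher and 10 lower in iQNP (all genes 25.1% and 18.2%), and 9 higher and 9 lower in TAP (26.6% and 20.2%). In knockdown iQNP against TAP it gave 17 higher and 8 lower (20.6% and 12.5%). A 3-fold limit gave 0 higher and 0 lower in iQNP (all genes 6.78% and 0.135%) and in TAP (6.8% and 0.883%). It gave 0 lower in control iQNP against TAP (1.28%). In knockdown iQNP against TAP it gave 4 higher and 1 lower (3.54% and 0.87%). Members over 50 kb alone gave 0 higher (all genes of that span 3.17%) and a median of -0.68 in iQNP. In TAP they gave 0 higher (4.61%), 1 lower (9.89%) and a median of -0.40. A minimum of 3 FPKM in either group turned the TAP median to -0.14, and 1 FPKM in both groups gave a median of 0.033 in control iQNP against TAP. The comparison of growth conditions and its alternatives were chosen after seeing the data. The calls of Sema4c, Efna2, Sema3a and Unc5c lay within 0.1 of the limit on the log2 scale.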
